A study of Homo sapiens with 151 samples.

Results

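The clustered protocadherin genes of human chromosome 5 were examined in the ChIP-seq peak calls of a human liver cancer cell line, HepG2. Members were the protein-coding genes of GENCODE 44 on that chromosome whose symbol begins with PCDHA, PCDHB or PCDHG and ends in a number, and 53 of 20033 protein-coding genes met this rule. The alpha cluster gave 15 members, the beta cluster 16 and the gamma cluster 22. The rule used names only and no measured value.

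Each list holds the peaks of 1 DNA-associated protein (DAP) that carried a FLAG tag at its own gene and was precipitated with an anti-FLAG antibody. The preferred data sets of the study are 32 lists of KRAB zinc finger transcription factors (TFs), 74 lists of other TFs and 15 lists of non-TF DAPs, and these preferred lists are counted unless stated otherwise. The series also has 6 non-preferred lists and 24 input libraries, which were not precipitated. All came from the same untreated cell line, so there is no treatment, time course or second cell type, and each DAP has 1 list without replicate lists. The preferred lists hold 195 to 61748 peaks each, with a median of 8680, and read depth is unknown. A gene without a peak is therefore a gene at which no peak was called in these lists. Expression was not analysed here. Promoters of hepatocyte genes did carry peaks, with APOB (apolipoprotein B) in 97 lists, HNF4A (a liver nuclear receptor) in 88 lists, ALB (albumin) in 13 lists and AFP (the fetal serum protein alpha-fetoprotein) in 6 lists.

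Clustered protocadherins are cell-surface adhesion proteins best known from the nervous system, where each neuron shows its own combination of them. In the alpha and gamma clusters many variable first exons stand in a row, each with its own promoter, and each is spliced to a shared set of constant exons at the end of the cluster. Beta genes have a single coding exon and no constant exons. Promoter choice is known to involve CTCF, cohesin, DNA methylation and distant enhancers, and the REST repressor has been linked to the silence of the clusters outside neurons. The C-type genes at the ends of the alpha and gamma clusters (PCDHAC1, PCDHAC2, PCDHGC3, PCDHGC4 and PCDHGC5) are regulated differently from the alternate genes before them.

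In GENCODE 44 all 53 members lie on the plus strand and the span from the first start site to the last member end is 727.0 kb (hg38, chr5:140786140-141512977). Every alpha and gamma member has 4 exons in its canonical transcript and every beta member has 1. The median first exon was 2532 bp long in the alpha cluster, 2598.5 bp in the gamma cluster and 3846.5 bp in the beta cluster. A promoter is taken here as the 500 bp on either side of the start site of the canonical transcript, and a list counts as present at a promoter when any of its peaks overlaps that window.

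Few member promoters carried any peak. A peak from at least 1 list was present at 9 of the 53 member promoters (17%), against 67.9% of all protein-coding promoters. None of the 53 was bound by at least 31 lists (25% of the lists), against 36.9% of all protein-coding promoters. The median number of lists was 0 at the members and 15 at all protein-coding promoters. By cluster, 1 of 15 alpha promoters, 4 of 16 beta promoters and 4 of 22 gamma promoters had a peak.

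**Figure D1:**
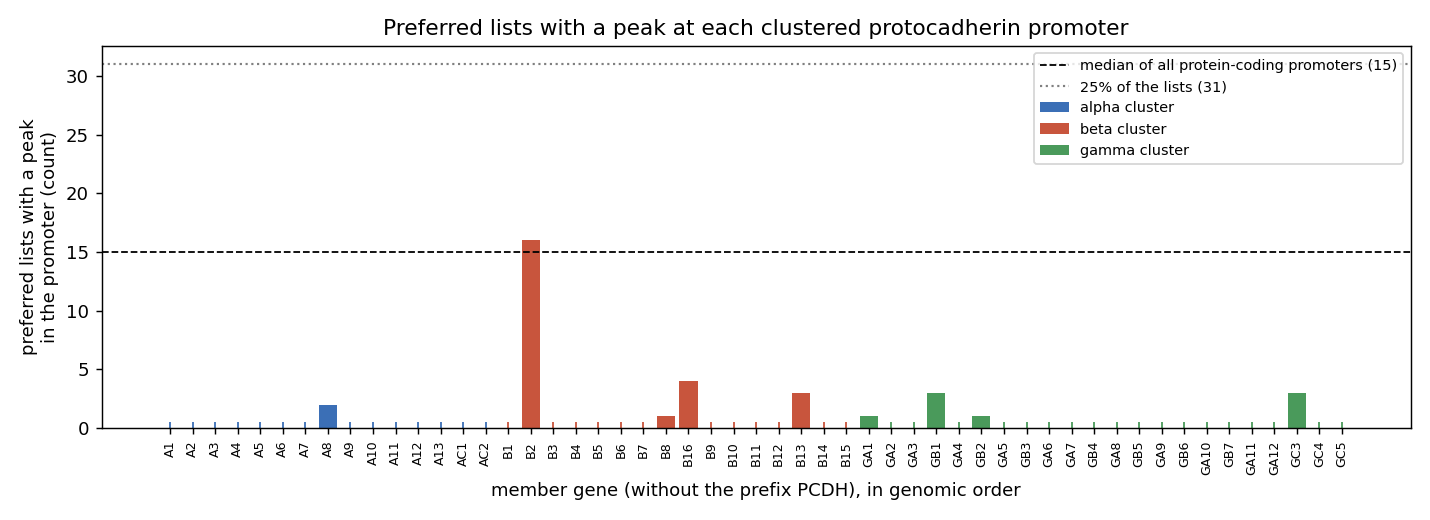
Number of preferred lists with a peak (vertical axis, count) in the promoter of each of the 53 members (horizontal axis, genomic order, coloured by cluster; a small tick marks a promoter without a peak). Only PCDHB2, with 16 lists, stands above the dashed line at the median of all protein-coding promoters (15 lists), and no bar reaches the dotted line at 31 lists.

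Counted over lists, the difference was larger than the spread between lists. The share of member promoters with a peak was 0.53% ± 1.4 (SD over the preferred lists), and the share of all protein-coding promoters was 19.8% ± 13.4 (SD over the same lists). The member share was lower in every preferred list, with a mean difference of -19.3 percentage points (two-sided sign-flip permutation test over lists, 100000 draws, p = 1.0e-05, the smallest that these draws can give). Lists that share an input library showed the same direction. Among the 8 input libraries that serve at least 6 lists each, the difference ran from -28.9 to -9.46 points, and the exact sign-flip p was between 6.1e-05 and 0.0312. In each library that p was the smallest its number of lists allows, so the range reflects these numbers. The lists come from 1 cell line and share inputs, so this p measures the spread between lists at these promoters and not between cultures.

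Base composition differed between the members and the rest, and peaks are rarer at promoters of low CpG content in general. A promoter was said to meet the CpG rule when its 1001-bp window had over 50% G and C and an observed-to-expected CpG ratio above 0.6. Of all protein-coding promoters 64.8% met the rule, against 5 of the 53 members (PCDHAC1, PCDHAC2, PCDHGB6, PCDHGC3 and PCDHGC4). Among promoters that met it, 86.5% had a peak and 52.6% were bound by at least 31 lists, while 1 of the 5 members had a peak and none reached 31 lists. Among promoters that did not meet it, 33.7% had a peak and 8.15% were bound by at least 31 lists, while 8 of 48 members (16.7%) had a peak and none reached 31 lists. Set against promoters outside the CpG rule, whose share with a peak was 5.4% ± 4.42 (SD over the preferred lists), the mean difference was -4.87 points and the member share was lower in all preferred lists but 1 (sign-flip permutation test, p = 1.0e-05). This comparison was chosen after the data were seen. It used all 53 members, with the 5 that met the rule included. JRK and PRDM4 illustrate how close single lists came: JRK had 5.66% of member promoters against 8.18% of those outside the rule, and PRDM4 had 1.89% against 1.79%.

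**Figure D2:**
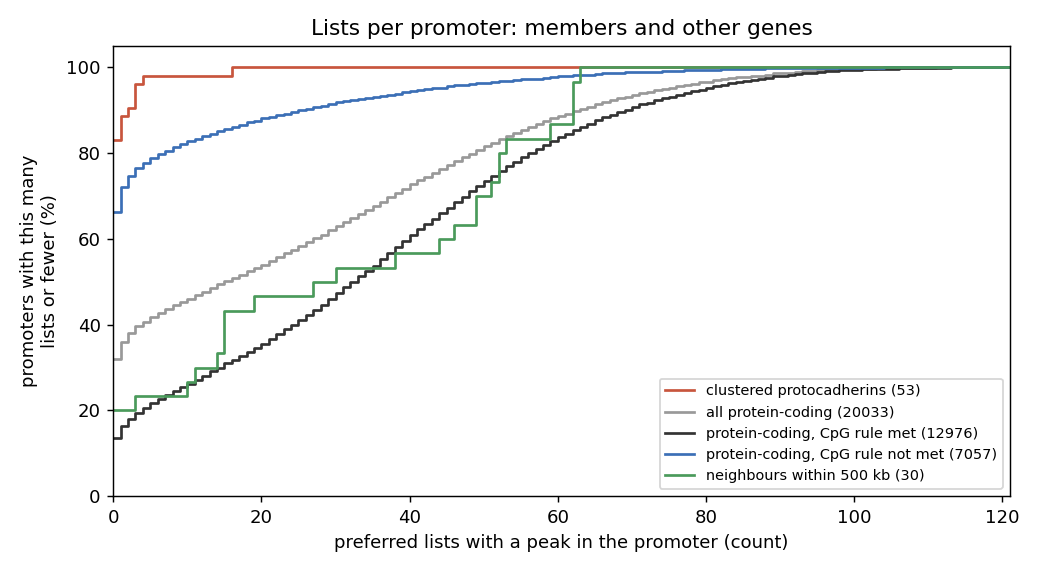
Percent of promoters (vertical axis) with a given number of preferred lists or fewer (horizontal axis, count) for the 53 members, all protein-coding genes, the genes that meet or do not meet the CpG rule, and the 30 neighbours within 500 kb. The member curve starts at 83.0% without a peak and reaches 98.1% at 4 lists, above each of the other curves.

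**Figure D3:**
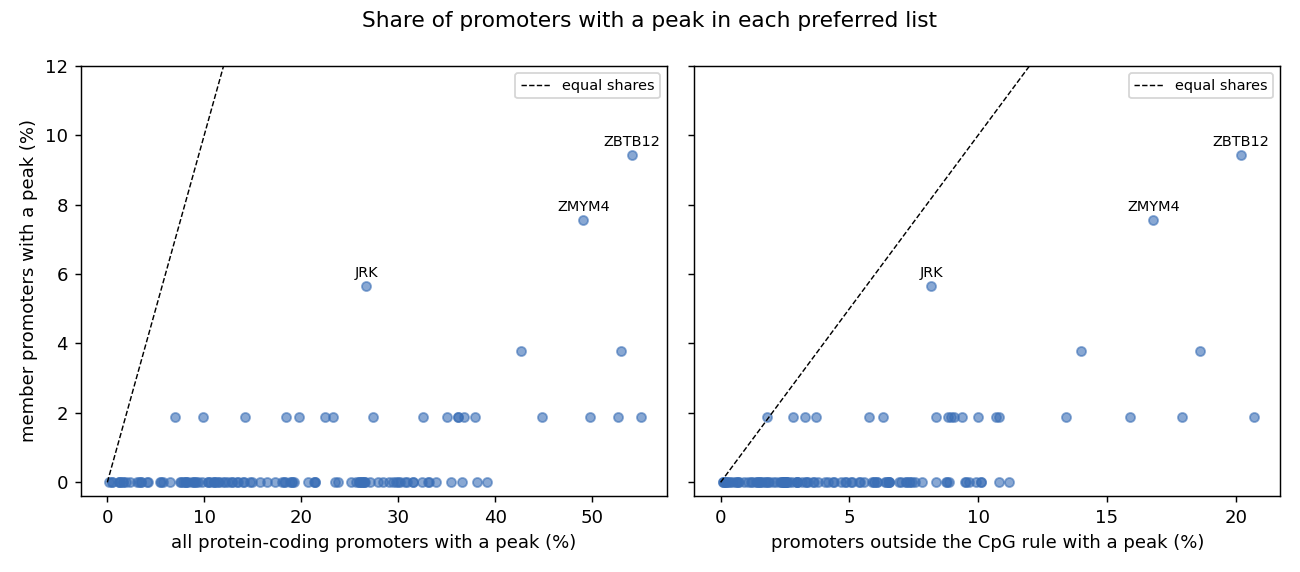
Vertical axis, percent of member promoters with a peak, and horizontal axis, the percent of all protein-coding promoters (left) or of promoters outside the CpG rule (right) with a peak. Each point is 1 preferred list. In the left panel every point lies to the right of the dashed line of equal shares, and ZBTB12, ZMYM4 and JRK are highest at 9.43%, 7.55% and 5.66% of the members.

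The member windows had a narrow composition. Their G and C content ran from 40.6% to 64.5% with a median of 44.4%, against a median of 61.3% at all protein-coding promoters. The C-type windows were the richest, with a median of 55.7% and a range of 53.4% to 64.5%. The observed-to-expected CpG ratio had a median of 0.765 in the alpha cluster, 0.492 in the beta cluster and 0.665 in the gamma cluster. The median over all protein-coding promoters was 0.725. Alpha windows thus combined few G and C bases with a CpG ratio near that of all genes.

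Several members resemble one another closely enough to limit how reads can be placed. As a measure, the share of 31-base words in a window that occur once in hg38 was computed for chromosome 5. It was under 90% in 12 of the 13 alternate alpha windows, 4 of 16 beta windows and 4 of 22 gamma windows, against 12.6% of all protein-coding windows of the chromosome. PCDHB13 (46.2%) and PCDHB8 (49.4%) were the lowest, and these windows share 49.6% of their 31-base words with each other. How the authors treated reads with several placements is not given in the sources used here, and the part of this in the low counts was not tested. Of the 33 members with at least 90% of such words, 6 (18.2%) had a peak, against 73.8% of the 738 other genes of chromosome 5 with at least 90%. This comparison was not matched for the CpG rule, which 67.9% of all protein-coding windows of the chromosome met, against 5 of the 53 members.

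The promoters also share short words, shown here because the rule did not use sequence and because they sit close to the start sites. RefSeq promoters (GRCh38.p14, 250 bases before to 50 bases after the start) matched 47 of the 53 members, and for each cluster the 12-base word present in most of its promoters was found. In the alpha cluster the word catgatgtcgct was present in 8 of 13 promoters and in no other of 27305 RefSeq promoters. Its first base lay 89 to 46 bases before the start site. In the stretches that follow (hg38, plus strand) the shared word is in capitals.
PCDHA1 (chr5:140786070-140786129): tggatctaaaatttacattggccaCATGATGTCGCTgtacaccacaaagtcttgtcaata
PCDHA2 (chr5:140794765-140794824): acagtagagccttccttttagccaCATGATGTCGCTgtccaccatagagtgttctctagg
PCDHA5 (chr5:140821526-140821585): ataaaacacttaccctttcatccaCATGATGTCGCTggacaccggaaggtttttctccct
PCDHA8 (chr5:140841114-140841173): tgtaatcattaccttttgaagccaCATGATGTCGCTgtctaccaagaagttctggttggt
Of these genes, which encode alpha protocadherins, PCDHA8 alone had a peak.

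In the beta cluster the most frequent word was gtggcgctgcag, found in 10 of 14 promoters and in 4 RefSeq promoters of other genes. It began 83 to 1 bases before the start site. All 4 beta promoters with a peak (PCDHB2, PCDHB8, PCDHB16 and PCDHB13) hold it, as do 6 without one.
PCDHB2 (chr5:141094532-141094591): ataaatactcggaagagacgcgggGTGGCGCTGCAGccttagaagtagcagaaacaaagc
PCDHB8 (chr5:141177765-141177824): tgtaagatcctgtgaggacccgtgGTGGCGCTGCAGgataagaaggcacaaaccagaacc
PCDHB13 (chr5:141213853-141213912): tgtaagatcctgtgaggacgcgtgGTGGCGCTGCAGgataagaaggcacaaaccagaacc
PCDHB16 (chr5:141182298-141182357): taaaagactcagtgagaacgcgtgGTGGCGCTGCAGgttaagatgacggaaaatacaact
PCDHB4 (chr5:141121711-141121770): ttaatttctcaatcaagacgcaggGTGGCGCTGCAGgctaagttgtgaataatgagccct
PCDHB15 (chr5:141245302-141245361): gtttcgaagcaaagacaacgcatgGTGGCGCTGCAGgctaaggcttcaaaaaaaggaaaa
PCDHB8 and PCDHB13 differ at 1 of the 60 bases shown.

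In the gamma cluster the most frequent word was gggcgccgctgt, found in 5 of 20 promoters and in 5 RefSeq promoters of other genes. Its first base lay at most 101 and at least 64 bases before the start site, and 2 of the 5 genes had a peak (PCDHGA1 and PCDHGB1).
PCDHGA1 (chr5:141330389-141330448): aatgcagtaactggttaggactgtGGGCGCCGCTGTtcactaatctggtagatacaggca
PCDHGB1 (chr5:141350011-141350070): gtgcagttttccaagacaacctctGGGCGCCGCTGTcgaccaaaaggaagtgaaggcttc
PCDHGB4 (chr5:141387603-141387662): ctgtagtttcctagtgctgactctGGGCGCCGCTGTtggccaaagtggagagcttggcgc
PCDHGB6 (chr5:141407910-141407969): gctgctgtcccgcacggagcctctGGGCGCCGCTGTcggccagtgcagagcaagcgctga
All 3 words contain CGCT, which was searched by itself on both strands and was found in 53 of 53 member windows, but also in 94.3% of all protein-coding windows of 1001 bp. TATAAA, the core of the TATA box, was found on either strand in 30 of 53 member windows (56.6%), against 23.3% of all protein-coding windows. Member windows held fewer G and C bases than all protein-coding windows (medians of 44.4% and 61.3%). The motif shares given here were not matched for base composition. The RE1 motif, to which REST binds, was searched with at most 1 mismatch and was found in 0 of 53 member windows, against 4.07% of all. The CTCF core motif, searched likewise, was found in 1 member window (PCDHB9), against 13.4% of all. A site that departs from the searched motif at more than 1 base was not counted, and CTCF binding at these promoters was not measured. A missing match is therefore no evidence that a CTCF site is absent.

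In the alpha cluster only PCDHA8 had a peak, in the lists of STAT5A, a cytokine-responsive TF, and ZFP91, a zinc finger protein. Their midpoints lay 312 bp and 272 bp after the start site. The STAT5A peak had a lower signal than 55.7% of that list's peaks and the ZFP91 peak a lower signal than 81.8% of its list's peaks. Signal is not scaled between lists, so each peak is ranked only within its own list. The alternate promoters PCDHA1, PCDHA2 and PCDHA3 and the C-type promoters PCDHAC1 and PCDHAC2 had 0 lists. PCDHAC1 and PCDHAC2 were without a peak although their windows hold 63.0% and 64.5% G and C and consist wholly of 31-base words that occur once.

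In the beta cluster PCDHB2 had peaks in 16 lists, the highest number of any member. They were BAZ2A, GLYR1, HIC2, JRK, KAT6A, MZF1, NCOA2, POU2F1, PRDM4, SALL1, SALL2, SMAD7, SRY, TTF1, ZBTB12 and ZMYM4. Their peaks merged into 1 region of 393 bp (chr5:141094543-141094935) whose midpoint lay 124 bp after the start site, within the first exon. Of the 16 lists, 5 had a peak there in the upper 50% of their own list by signal. The strongest by rank was KAT6A, a histone acetyltransferase, with 31.2% of its list's peaks stronger, and the weakest was POU2F1, an octamer-binding TF, with 80.1% stronger. All 31-base words of the PCDHB2 window occur once in the genome. PCDHB2 held 16 of the 34 pairs of a member promoter and a list.

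The other beta promoters with a peak were PCDHB16 with 4 lists (ELK3, RCOR3, SMAD7 and ZMYM4), PCDHB13 with 3 lists (JRK, ZBTB12 and ZMYM4) and PCDHB8 with 1 list (JRK). At PCDHB13 the JRK peak was among the strongest of its list, with 0.548% of 15883 peaks above it, while the ZBTB12 and ZMYM4 peaks there had 73.9% and 84.5% of their lists above them. JRK is a DNA-binding protein related to the centromere protein CENPB. At PCDHB8 the JRK list held 2 overlapping peaks, with 4.17% and 5.09% of the list above them. Of the 31-base words in the merged regions, 38.5% occur once in the genome at PCDHB13, and 100% and 30% at the 2 places of PCDHB8, against 37.1% at the bound region of PCDHA8 and 100% at the bound promoter regions of the other members. PCDHB1, PCDHB3 and PCDHB4 had 0 lists.

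In the gamma cluster PCDHGB1 and PCDHGC3 had 3 lists each, and PCDHGA1 and PCDHGB2 had 1 list each. The PCDHGB1 peaks were of E2F8, an atypical E2F repressor, ZBTB12 and ZMYM4. PCDHGB2 had a peak of ZBTB12 alone, and PCDHGA1 had a peak of ZNF85, a KRAB zinc finger protein. The C-type promoter PCDHGC3 had peaks of MGA, a MAX-binding repressor, ZBTB12 and ZFP91, with midpoints from 112 bp before to 246 bp after the start site. Their best peaks had 53.9%, 59.6% and 69.4% of their own lists above them. The other gamma C-type promoters, PCDHGC4 and PCDHGC5, had 0 lists, as did PCDHGA2, PCDHGA3 and PCDHGA4.

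Across all bound members, 35 of the 40 peaks had their midpoint within 250 bp of the start site. The median peak had 64.3% of its own list above it, and 9 of the 40 were in the upper 50% of their list. The highest ranks were those of the JRK peaks at PCDHB13 and PCDHB8.

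Between clusters, beta promoters had the larger share, and this rested on PCDHB2. The mean share over lists was 0.11% ± 0.854 in the alpha cluster, 1.24% ± 3.39 in the beta cluster and 0.301% ± 1.52 in the gamma cluster (SD over the preferred lists). Alpha was below beta by a mean of -1.13 points (sign-flip permutation test, p = 2.4e-04, p = 9.6e-04 after Benjamini-Hochberg adjustment over 4 comparisons), with alpha lower in 18 lists and higher in 2. Beta was above gamma by 0.939 points (permutation p = 8.2e-04, adjusted p = 0.00164), with beta higher in 17 lists and lower in 5. Without PCDHB2, a choice made after the data were seen, the differences were -0.331 points (adjusted permutation p = 0.333) and 0.14 points (adjusted permutation p = 0.514). Alpha and gamma differed by -0.19 points (adjusted permutation p = 0.25), with alpha lower in 5 lists and higher in 2. C-type promoters had a share of 0.496% ± 3.12 against 0.181% ± 0.836 at the alternate alpha and gamma promoters (SD over the preferred lists). That difference of 0.315 points had an adjusted permutation p of 0.25, and 3 lists were higher and 4 lower at the C-type promoters. Within the 8 input libraries the alpha-beta difference ran from -5.21 to 0 points and the beta-gamma difference from -0.455 to 2.18 points, with exact sign-flip p of 0.125 or more. At most 4 lists of any library differed in these comparisons, so a smaller p was not possible. Alpha against gamma ran from -3.03 to 0 points and C-type against alternate from 0 to 2.0 points there, with exact p of 0.5 or more. At most 2 lists of any library differed in these, so again no smaller p was possible. The p values within libraries therefore cannot decide whether the differences hold there.

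Only 23 lists had a peak at any member promoter and 98 had none, and 18 of the 23 had it at a single one. ZBTB12, a zinc finger protein with a BTB domain, reached 5 members (PCDHB2, PCDHB13, PCDHGB1, PCDHGB2 and PCDHGC3). ZMYM4, a non-TF DAP with MYM-type zinc fingers, reached 4 members (PCDHB2, PCDHB16, PCDHB13 and PCDHGB1), and JRK reached 3. ZFP91 and SMAD7, an inhibitor of TGF-beta signalling, reached 2 members each. The next in order of list length, with 1 member each, were SALL1, MGA, POU2F1, E2F8 and NCOA2. These numbers stood far below the lists' reach over all protein-coding promoters. ZBTB12 had a peak at 54.1% of those, which would be 28.7 of 53 genes. SALL1, with 55.0% of all protein-coding promoters, had a peak at PCDHB2 alone. Outside the CpG rule, where 48 of the 53 members fall, the shares were lower. There ZBTB12 had 20.2%, SALL1 20.7% and JRK 8.18%, against 9.43%, 1.89% and 5.66% of the members. JRK thus came close to its share at promoters outside the rule.

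Lists with a member peak were longer, with a median of 20098 peaks against 6318 in the 98 lists without one. The shortest with a member peak was PRDM4 (2693 peaks, at PCDHB2) and the longest without one was ZNF430 (24380 peaks). The first 2 lists, ZBTB12 and ZMYM4, share an input library. Of the lists fixed for their ties to the REST corepressor machinery, RCOR3, a CoREST family protein with 20296 peaks, had a peak at PCDHB16. ZMYM2 (19597 peaks) and ZFP90 (8050 peaks) had no peak in the whole locus.

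No difference was detected between KRAB zinc finger lists and the other TF lists in how far members lay below all promoters. The mean difference between members and all protein-coding promoters was -19.3 points ± 10.7 (SD) in 32 KRAB lists and -18.9 points ± 13.7 (SD) in 74 other TF lists, and these differed by -0.417 points (two-sided permutation test over these 2 sets of lists, 100000 draws, p = 0.878). One KRAB list, that of ZNF85, had a peak at a member promoter, against 18 of the 74 other TF lists and 4 of the 15 non-TF lists. Taken by the member share alone, KRAB lists had 0.059% and other TF lists 0.637% of the members (permutation p = 0.0307). These shares are small beside the differences of -19.3 and -18.9 points. The first comparison thus mostly reflects each list's share of all protein-coding promoters and says little about the members. The second makes no allowance for that share. In the input libraries with at least 2 lists of each kind the difference ran from -10.5 to 0.602 points, with exact permutation p of 0.286 or more.

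**Figure D4:**
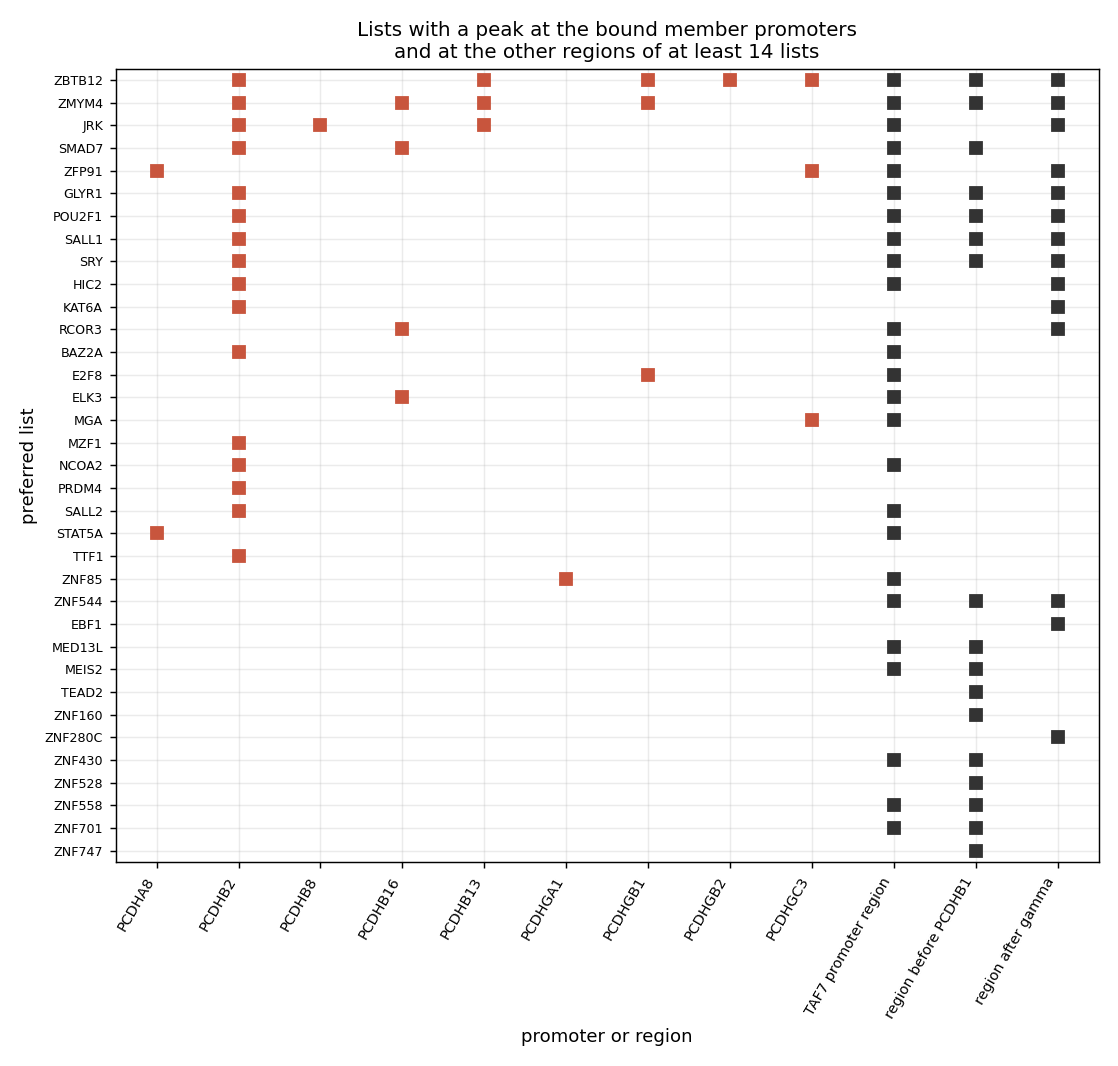
Preferred lists (rows) with a peak at the 9 bound member promoters (red squares) or in the 3 regions outside member promoters bound by at least 14 lists (black squares). The 35 lists shown are those with a peak at a bound member, in the region before PCDHB1 or in the region after the gamma cluster, and 25 of them (71.4%) also had a peak in the TAF7 promoter region, against 52.1% of all preferred lists. These shares were not matched for list length.

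Merged regions were sparse over the locus as a whole, promoters and flanks included. No density was computed for the stretches between promoters alone. Taken from 50 kb before the first member start to 50 kb after the last member end, the locus covers 0.827 Mb. Merging the central 100 bp of all preferred peaks gave 30 regions there, or 36.3 per Mb, against 68.6 per Mb over the genome. Of the 30 regions, 13 lay in member promoters and 3 lay in a first exon beyond the promoter. A further 5 lay inside the alpha or beta cluster outside exons, 5 between clusters and 4 in the flanks. No region had its midpoint in any of the 6 constant exons, and none lay inside the gamma cluster outside the promoters. In all, 18 of the 30 regions came from a single list.

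**Figure D5:**
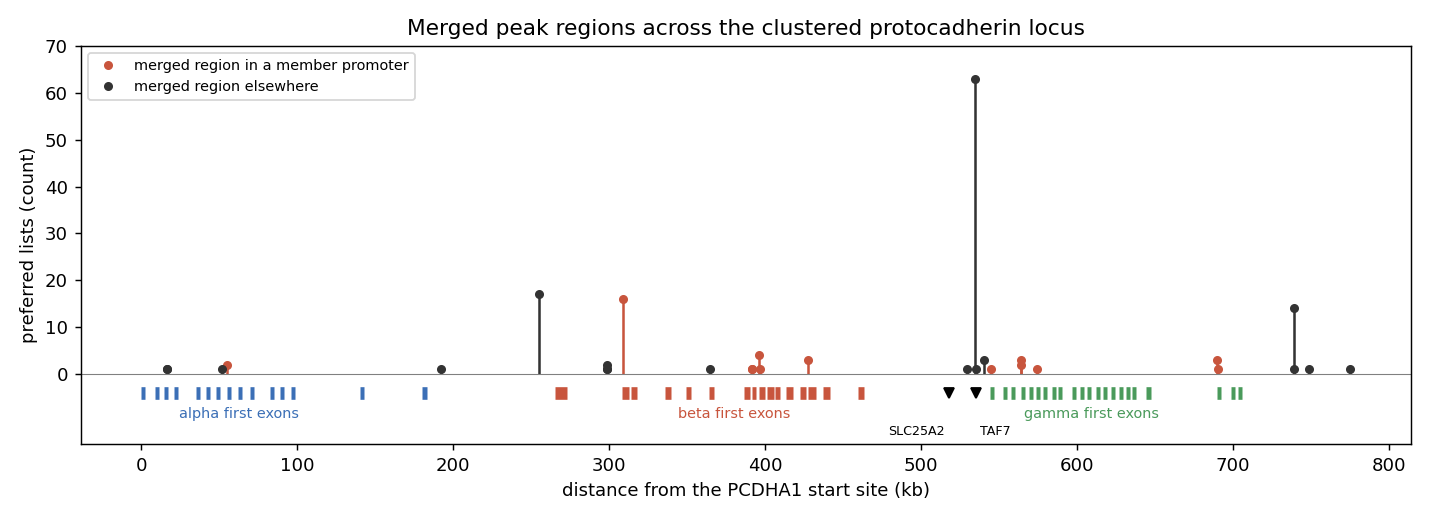
Merged peak regions of the locus by distance from the PCDHA1 start site (horizontal axis, kb) and number of preferred lists (vertical axis, count), with member first exons as blocks and the start sites of SLC25A2 and TAF7 as triangles below. The tallest region, of 63 lists, is at TAF7, and regions of 17, 16 and 14 lists stand before PCDHB1, at PCDHB2 and after the gamma cluster.

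The region bound by most lists was not at a member. It spanned 850 bp (chr5:141320258-141321107), held peaks of 63 lists and centred close to the start site of TAF7, a subunit of the general transcription factor TFIID whose gene stands between the beta and gamma clusters. Its nearest member, PCDHGA1, starts 9.83 kb farther on and had 1 list. In 49 of the 63 lists the TAF7 peak was in the upper 50% of the list by signal.

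Between the alpha and beta clusters a region of 192 bp (chr5:141041156-141041347) was bound by 17 lists. It lay 74.8 kb after the start of PCDHAC2 and 10.1 kb before PCDHB1, and no annotated gene overlaps it. The lists were GLYR1, MED13L, MEIS2, POU2F1, SALL1, SMAD7, SRY, TEAD2, ZBTB12, ZMYM4, ZNF160, ZNF430, ZNF528, ZNF544, ZNF558, ZNF701 and ZNF747, of which 7 are KRAB zinc finger proteins and 3 are non-TF DAPs. They were called against 14 different input libraries or sets of libraries. Here 10 of the 17 peaks were in the upper 50% of their list, led by ZMYM4 with 6.38% of its peaks stronger. TEAD2, a partner of the YAP coactivator, had 15.8% of its 3289 peaks stronger.

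This region is printed with its motif matches in capitals, since it was the only one of the 30 with a match to both the RE1 and the CTCF core motif. The RE1 match (chr5:141041268-141041284, minus strand) has 1 mismatch. The CTCF core match on the minus strand (chr5:141041372-141041383) has 0 mismatches, and a second match on the plus strand, with 1 mismatch, overlaps it and is shifted by a single base.
Region before PCDHB1 (chr5:141041101-141041400): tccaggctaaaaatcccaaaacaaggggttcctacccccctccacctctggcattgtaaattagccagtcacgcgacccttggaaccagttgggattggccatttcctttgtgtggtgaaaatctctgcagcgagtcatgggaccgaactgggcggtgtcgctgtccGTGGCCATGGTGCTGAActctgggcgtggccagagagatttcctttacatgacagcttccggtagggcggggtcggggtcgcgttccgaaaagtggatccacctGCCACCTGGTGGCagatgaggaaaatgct
Among 7787 merged regions of chromosome 5, taken as the 300 bp around the midpoint, 1.34% hold an RE1 match, 7.37% a CTCF core match and 0.0899% (7 regions) both. Among the 1044 of these regions with at least 10 lists, 2.39% hold an RE1 match, 8.62% a CTCF core match and 0.287% (3 regions) both. An enhancer of the alpha cluster with sites for CTCF and REST is known downstream of the alpha constant exons. Its coordinates were not used here, and neither CTCF nor REST is among the lists.

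After the gamma cluster a region of 304 bp (chr5:141524837-141525140) was bound by 14 lists. It lay 35.9 kb after the start of PCDHGC5, inside the gene body of DIAPH1, a formin that nucleates actin, whose own start site was 94012 bp away. The lists were EBF1, GLYR1, HIC2, JRK, KAT6A, POU2F1, RCOR3, SALL1, SRY, ZBTB12, ZFP91, ZMYM4, ZNF280C and ZNF544, of which 1 is a KRAB zinc finger protein. In 10 of the 14 lists the peak was in the upper 50% of the list, led by GLYR1, a nucleosome-binding protein, with 17.5% of its peaks stronger. The region holds a CTCF core match with 0 mismatches on the minus strand (chr5:141524894-141524905), in capitals in its sequence.
Region after the gamma cluster (chr5:141524838-141525137): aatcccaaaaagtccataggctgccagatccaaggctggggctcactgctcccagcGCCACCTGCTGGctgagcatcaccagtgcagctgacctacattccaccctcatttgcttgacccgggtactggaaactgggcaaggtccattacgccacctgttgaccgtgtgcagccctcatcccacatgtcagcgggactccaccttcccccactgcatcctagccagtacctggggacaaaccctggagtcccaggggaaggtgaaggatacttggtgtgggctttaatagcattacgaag
It holds no RE1 match in these 300 bases.

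The 3 most bound places apart from TAF7 shared part of their lists. The region before PCDHB1 and the PCDHB2 promoter had 7 lists in common, which is 41.2% of the former and 43.8% of the latter. The region after the gamma cluster and the PCDHB2 promoter had 9 lists in common (64.3% and 56.2%), and the 2 regions outside promoters had 7 in common (41.2% and 50.0%). GLYR1, POU2F1, SALL1, SRY, ZBTB12 and ZMYM4 were present at all of them. Of the lists at these places, 76.5%, 75.0% and 78.6% also had a peak in the TAF7 region, for the region before PCDHB1, the PCDHB2 promoter and the region after the gamma cluster in that order, against 52.1% of all preferred lists. Lists at these places were also long, with medians of 18807, 19355 and 19454 peaks in the same order, against 8680 over all preferred lists. None of these shared counts was matched for list length, and its part in them was not tested.

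The remaining regions outside promoters were bound by at most 3 lists. One with 3 lists (E2F8, MGA and SALL1) lay 4.28 kb before PCDHGA1 (chr5:141326149-141326316). A region with 2 lists (MEIS2 and ZNF850) lay 9.88 kb before PCDHB2 (chr5:141084666-141084802), with single-list regions of ZMYM4 and MEIS2 on either side of it. Those of 1 list included 2 of L3MBTL4 in the first exon of PCDHA3, 1 of ZNF865 before PCDHA8 and 1 of SALL1 at 12.0 kb after the start of PCDHAC2.

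Most genes around the clusters had a peak. Of 30 protein-coding neighbours with a start site within 500 kb of the clusters, 24 had a peak and 14 were bound by at least 31 lists, with a median of 28.5 lists. Of these neighbours 21 met the CpG rule, against 5 of the 53 members, and the share with a peak was 67.9% over all protein-coding promoters and 86.5% over those that met the rule. TAF7 (63 lists) and HARS1 (62 lists, a histidyl-tRNA synthetase) were the highest, and HARS1 starts 94.8 kb before PCDHA1. Among the 6 neighbours with 0 lists were SLC4A9, an anion exchanger gene, and DND1, a germ cell RNA-binding protein gene, as well as SLC25A2, which like TAF7 stands between the beta and gamma clusters. Some neighbours have overlapping promoter windows, such as HARS1 and HARS2 (62 lists each), so the same peaks can count for both genes. The counts of neighbours set levels side by side, without a test.

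Other genes of the family and its known regulators gave a range to read the members by. Of 12 protocadherin genes outside the clusters, 2 had a peak, PCDH9 in 28 lists and PCDH1 in 10 lists, and 10 had none (PCDH7 and PCDH8 among them), with a median of 0 lists. Of 23 other cadherin genes, 15 had a peak, with a median of 2.0 lists. FAT4 (43 lists) and CELSR3 (28 lists) led them, while CDH4 and CDH6 had none. The share with a peak over all protein-coding promoters was 67.9%, close to that of these cadherin genes. The CpG rule was met by 19 of the 23 cadherin genes and 7 of the 12 protocadherin genes, and 5 of those 7 had no peak. Of 18 genes for known regulators of the clusters, 18 had a peak and 10 were bound by at least 31 lists, with a median of 37.5 lists. Of these 16 met the CpG rule, and 86.5% of all protein-coding promoters that met it had a peak and 52.6% were bound by at least 31 lists. The cohesin genes PDS5A and SMC3 (66 lists each) were highest, and REST (5 lists) and WIZ (2 lists) were lowest. These lists of genes were chosen with earlier results of these data known, and their counts describe promoter occupancy only.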

How the data were processed

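ChIP-seq peak lists of 127 FLAG-tagged DAPs in HepG2 were used. The authors called peaks on hg38 with the ENCODE pipeline against input libraries. Which aligner and peak caller were run was not given in the sources used here. The deposited score (540 or more in every list) and the deposited signal rank or filter peaks within a list, and the deposited q column, also taken as a score, was not used. Lists were called per DAP, with replicates already combined by the authors.

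Promoter windows, merged regions and motif matches were computed in Python 3.11.15 with numpy 2.4.6 and pandas 2.3.3, from GENCODE 44 and hg38. Shares of promoters were compared over lists with two-sided sign-flip tests, and groups of lists with permutation tests, each with 100000 draws or exact where fewer were possible. Calculations were tested on simulated data. KRAB proteins were named from general knowledge and not checked against protein sequences.

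The members, gene lists and tests were chosen with earlier results of these data known. Named were the 3 members with the most and the 3 with the fewest lists per cluster, the C-type members, the 10 regions outside promoters and the 10 lists with the highest counts, RCOR3, ZMYM2 and ZFP90, and the 2 most and 2 least bound genes of each gene list. Ties followed genomic order or list length. Alternatives changed the window, the peak threshold, the lists, the start sites and the background.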

Additional observations from a re-analysis of the deposited data

Results flagged for a closer look

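The 6 non-preferred lists, which no comparison of the preferred lists used, held 7 peaks in the locus. TSC22D2 had 3 of them, at 10098 bp before PCDHB1, at PCDHB2 and at 68876 bp after the start of PCDHGC5. The first 2 fell in the places bound by 17 and 16 preferred lists. ZNF431 had 1 peak, in the region after the gamma cluster, and EP300 had 1, at 32282 bp after the start of PCDHGC5. ZZZ3 had 2 peaks at the TAF7 promoter, and GPBP1L1 (73 peaks) and TUT4 (7508 peaks) had 0.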

How the results depend on the processing

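The difference between members and all protein-coding promoters kept its direction and its side of 0.05 under each of the 11 alternatives run. It ran from -27.1 points against promoters that meet the CpG rule to -2.79 points with the 1000 peaks of highest signal per list. The former set all 53 members, of which 5 met the rule, against a background share of 27.7% in place of 19.8%. A larger difference there followed from the choice of background. With peaks of score 830 or more, alpha was below beta by -0.258 points (adjusted permutation p = 0.5) and beta above gamma by 0.108 points (adjusted permutation p = 0.5). With the 1000 strongest peaks these values were -0.103 and 0.103 points (both adjusted permutation p = 1.00), and without PCDHB2 they were -0.331 and 0.14 points. Fewer lists then had any peak at the members, and PCDHB2 kept 2 lists at a score of 830 or more. Under that score the KRAB difference turned to 1.33 points (permutation p = 0.561), and by the member share alone it was -0.578 points (permutation p = 0.0307). Member promoters with a peak fell from 9 to 2 with the 1000 strongest peaks and lay between 7 and 10 otherwise. Member promoters bound by 25% of the lists numbered 0 in each setting. The merged regions numbered 19 at a score of 830 or more, when the regions before PCDHB1 and after the gamma cluster kept 8 and 10 lists. Of 78 recomputed values, 68 stayed on their side of the threshold or within 1.5 times the count, and the cause of the other changes was not tested. Without read depth, a missing peak and a weak one cannot be told apart.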

Other observations

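Ordered by start site, the 20033 protein-coding promoters held 2975 runs without a peak, with a median length of 1.0 gene. The longest run among the members, PCDHGA5 to PCDHGA12, had 13 genes, and PCDHA9 to PCDHB1 gave a run of 8 and PCDHA1 to PCDHA7 a run of 7. In all, 35 runs in the genome had 13 genes or more. The longest, on chromosome 11, had 72 genes, of which 63 carry olfactory receptor symbols, and none of its genes but 1 met the CpG rule. HOX genes, a clustered family of developmental TFs added to the lists after the data were seen, differed from the members in composition, with 32 of 39 meeting the CpG rule, yet 29 of 39 had no peak. HOXD1 (50 lists) and HOXA4 (33 lists) were the highest of them. These are values only, without a test.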
